A study of Mus musculus with 10 samples.

Results

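The WNT pathway was followed through 42 named genes among the 51707 genes whose transcripts were summed in 10 RNA sequencing libraries of sorted mouse tumour epithelium. The genes were 14 WNT ligands, 2 genes of ligand production, 10 Frizzled receptors, 2 co-receptors, 4 genes of receptor turnover and R-spondin sensing, 1 secreted modulator, 3 genes of the destruction complex, 3 TCF and LEF factors and 3 feedback and target genes. The epithelium came from pancreatic ductal adenocarcinomas (PDAC) grown in NSG mice, an immunodeficient strain, after KPC T6-LOH organoids had been transplanted into the pancreas. KPC organoids are cultures from an engineered mouse model of this cancer. The organoids were given together with pancreatic stellate cells (PSCs), the precursors of tumour fibroblasts. In 5 libraries the PSCs were the Egfr knockout clone B4 of the line PSC4 (Egfr KO PSC), a single clone. In the other 5 they were PSC4 cells labelled ROSA (Egfr WT PSC), read here as the wild-type PSCs of the series title. The strain label of every library was C57BL/6J, without saying whether it meant the host or the transplanted cells. No source used here gives the age of the mice. The question was how the carcinoma cells differ when the PSCs transplanted with them lack Egfr.

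WNT ligands are made in the producing cell with a lipid attached by PORCN, and WLS carries them to the surface. On the receiving cell they bind a Frizzled receptor with the co-receptor LRP5 or LRP6. The destruction complex of AXIN, APC and GSK3B then stops degrading beta-catenin, which joins a TCF or LEF factor on target genes such as Axin2. RNF43 and ZNRF3 remove Frizzled receptors from the surface, and R-spondins bound to LGR4 or LGR5 hold these enzymes back. In human pancreatic cancer lines, loss of RNF43 makes growth depend on secreted WNT. Some ligands, such as WNT5A, act mainly through other branches that steer cell shape and movement.

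The defining epithelial markers were abundant in every library. The summed level of 10 epithelial genes, among them Epcam, Cdh1 and the simple keratins, was 14234 to 22380 TPM (the share of a library's transcripts, a level corrected for transcript length) in Egfr KO PSC libraries and 15096 to 17729 TPM in Egfr WT PSC libraries. Markers of other cell types had lower sums. For 12 fibroblast genes the sum was 113 to 387 TPM with Egfr KO PSCs and 124 to 299 TPM with Egfr WT PSCs. Of these genes, Col3a1 alone had 68.3 to 322 TPM with Egfr KO PSCs and 49.6 to 178 TPM with Egfr WT PSCs. It dominates the sum, which therefore does not show how the other genes differ. Col1a1, the next most abundant, had 19.2 to 39.6 TPM with Egfr KO PSCs and 38.6 to 73.1 TPM with Egfr WT PSCs. Of the 12 genes, 9 were lower and 3 higher with Egfr KO PSCs. For 10 endothelial genes the sum was 8.27 to 35.9 TPM with Egfr KO PSCs and 15.3 to 25.5 TPM with Egfr WT PSCs. The 12 macrophage genes summed to 175 to 328 TPM with Egfr KO PSCs and 266 to 434 TPM with Egfr WT PSCs, and without Cd14 the sums were 34.8 to 43.8 TPM with Egfr KO PSCs and 27.4 to 74.1 TPM with Egfr WT PSCs. The 10 acinar genes summed to 127 to 534 TPM with Egfr KO PSCs and 187 to 489 TPM with Egfr WT PSCs, and the 10 pericyte and smooth muscle genes to 41.0 to 79.9 TPM with Egfr KO PSCs and 48.5 to 124 TPM with Egfr WT PSCs. Egfr itself was expressed by the epithelium of both groups, at 16.4 to 30.4 TPM with Egfr KO PSCs and 10.8 to 26.6 TPM with Egfr WT PSCs. The knockout was in the PSCs, so this level does not check the labels. The libraries held 39534055 to 53816086 estimated counts in named genes.

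To show promoter DNA of some members, the 250 bases before the RefSeq start were taken from the RefSeq promoter table (GRCm38.p6). They are printed 5′ to 3′ on the gene's strand for Ascl2 and Axin2, both WNT targets, and for the ligand Wnt11. Ascl2 lies at chr7:142969265-142969514 (minus strand), Axin2 at chr11:108920099-108920348 (plus strand) and Wnt11 at chr7:98834862-98835111 (plus strand). Capitals mark CTTTG, the core of the TCF and LEF motif, in either orientation (CAAAG on the printed strand). Neither the Ascl2 nor the Axin2 stretch held this core, so both are in lower case throughout. The stretch of Lgr4, searched in the same way but not printed, held it 0 times. The Wnt11 stretch held it 2 times, beginning 161 and 49 bases before the start, and the copy nearer the start is part of the longer motif CTTTGAT read on the other strand.
Ascl2: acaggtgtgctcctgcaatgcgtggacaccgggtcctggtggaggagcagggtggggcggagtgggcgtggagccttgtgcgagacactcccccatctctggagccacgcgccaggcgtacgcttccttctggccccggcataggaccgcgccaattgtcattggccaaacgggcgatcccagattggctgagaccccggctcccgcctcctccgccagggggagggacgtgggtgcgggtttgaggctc
Axin2: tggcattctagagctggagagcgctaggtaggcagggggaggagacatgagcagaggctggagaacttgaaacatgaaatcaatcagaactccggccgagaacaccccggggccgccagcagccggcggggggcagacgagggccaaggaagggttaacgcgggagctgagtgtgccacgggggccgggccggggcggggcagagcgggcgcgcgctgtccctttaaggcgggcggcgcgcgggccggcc
Wnt11: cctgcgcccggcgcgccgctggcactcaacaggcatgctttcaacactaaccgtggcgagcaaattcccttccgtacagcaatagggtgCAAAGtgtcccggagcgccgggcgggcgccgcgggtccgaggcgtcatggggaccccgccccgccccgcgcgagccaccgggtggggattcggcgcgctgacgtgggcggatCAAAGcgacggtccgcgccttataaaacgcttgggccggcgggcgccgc
The core is short and common. It was found on either strand in 48.6% of the 32851 promoters of the same length, and in 15 of the 36 promoters of the 27 members that the table holds (41.7%). The longer CTTTGA, which contains the core, was in 13.8% of all promoters and in 5 of the 36 (13.9%). CTTTGAT was in 3.21% of all promoters and in 2 of the 36 (5.56%), those of Wnt5b and Wnt11. A match is a run of letters and not a measured binding site, and the absence of one says nothing about sequence outside this window.

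The sorted epithelium expressed a small set of ligands, led by Wnt7b. The median over the 10 libraries reached 1 TPM for 5 of the 14 ligands. Wnt7b, a ligand that can signal through beta-catenin, was at 15.9, 23.1, 24.3, 24.0 and 8.34 TPM in Egfr KO PSC libraries (replicates 1 to 5, the order of all lists that follow). It was at 10.6, 14.0, 18.4, 22.1 and 31.8 TPM in Egfr WT PSC libraries. The lowest library had Egfr KO PSCs and the highest Egfr WT PSCs, and the groups overlapped over most of their range. Wnt7b held 39.6 to 62.8% of the summed TPM of the 14 ligands with Egfr KO PSCs and 41.5 to 58.5% with Egfr WT PSCs. It was above Wnt7a in 10 of 10 libraries.

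Wnt7a, its close relative, was at 4.56, 3.84, 5.71, 4.24 and 2.39 TPM with Egfr KO PSCs, and at 1.97, 3.98, 5.57, 4.31 and 8.34 TPM with Egfr WT PSCs. Both extremes were Egfr WT PSC libraries, so the Egfr KO PSC values lay inside the Egfr WT PSC range. Wnt5a, the typical ligand of the beta-catenin-independent branches, was at 6.06, 2.32, 3.74, 8.02 and 4.12 TPM with Egfr KO PSCs, and at 5.94, 3.48, 4.30, 4.42 and 3.11 TPM with Egfr WT PSCs. Here both extremes were Egfr KO PSC libraries. Wnt5b, a relative of Wnt5a, was at 3.52, 3.87, 3.997, 3.81 and 2.17 TPM with Egfr KO PSCs, and at 1.92, 3.24, 3.001, 2.94 and 4.34 TPM with Egfr WT PSCs. Replicate 5 of the Egfr KO PSC libraries stood below the other 4 of its group for Wnt7b, Wnt7a and Wnt5b alike.

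The fifth ligand was Wnt10b, with a median of 2.36 TPM. Below 1 TPM lay Wnt4 at 0.978 TPM and then Wnt10a, Wnt2, Wnt9a, Wnt11 and Wnt2b. Every pair of neighbours in this order overlapped in range. Wnt3a, a classical activator of beta-catenin, had 0 counts in all 10 libraries. A count of 0 allows up to 3 counts in a library, which is 0.0557 to 0.0759 CPM (counts scaled to library size) at these depths. Wnt3 had 4 counts in replicate 4 of the Egfr KO PSC libraries and 1 in replicate 5 of the Egfr WT PSC libraries, and 0 in the other 8. Wnt6 had at most 1 count in any Egfr KO PSC library and at most 4 in any Egfr WT PSC library.

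Both genes of ligand production were expressed above the level of any single ligand in every library. Wls, the carrier, was at 111, 113, 36.9, 72.6 and 146 TPM with Egfr KO PSCs, and at 132, 98.7, 102, 94.8 and 88.2 TPM with Egfr WT PSCs. Porcn, the acyltransferase, was at 76.1, 57.2, 31.4, 41.4 and 76.9 TPM with Egfr KO PSCs, and at 55.4, 46.9, 51.4, 48.2 and 50.5 TPM with Egfr WT PSCs. For both genes the Egfr KO PSC libraries held the highest and the lowest value, with replicate 3 lowest and replicate 5 highest.

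**Figure D1:**
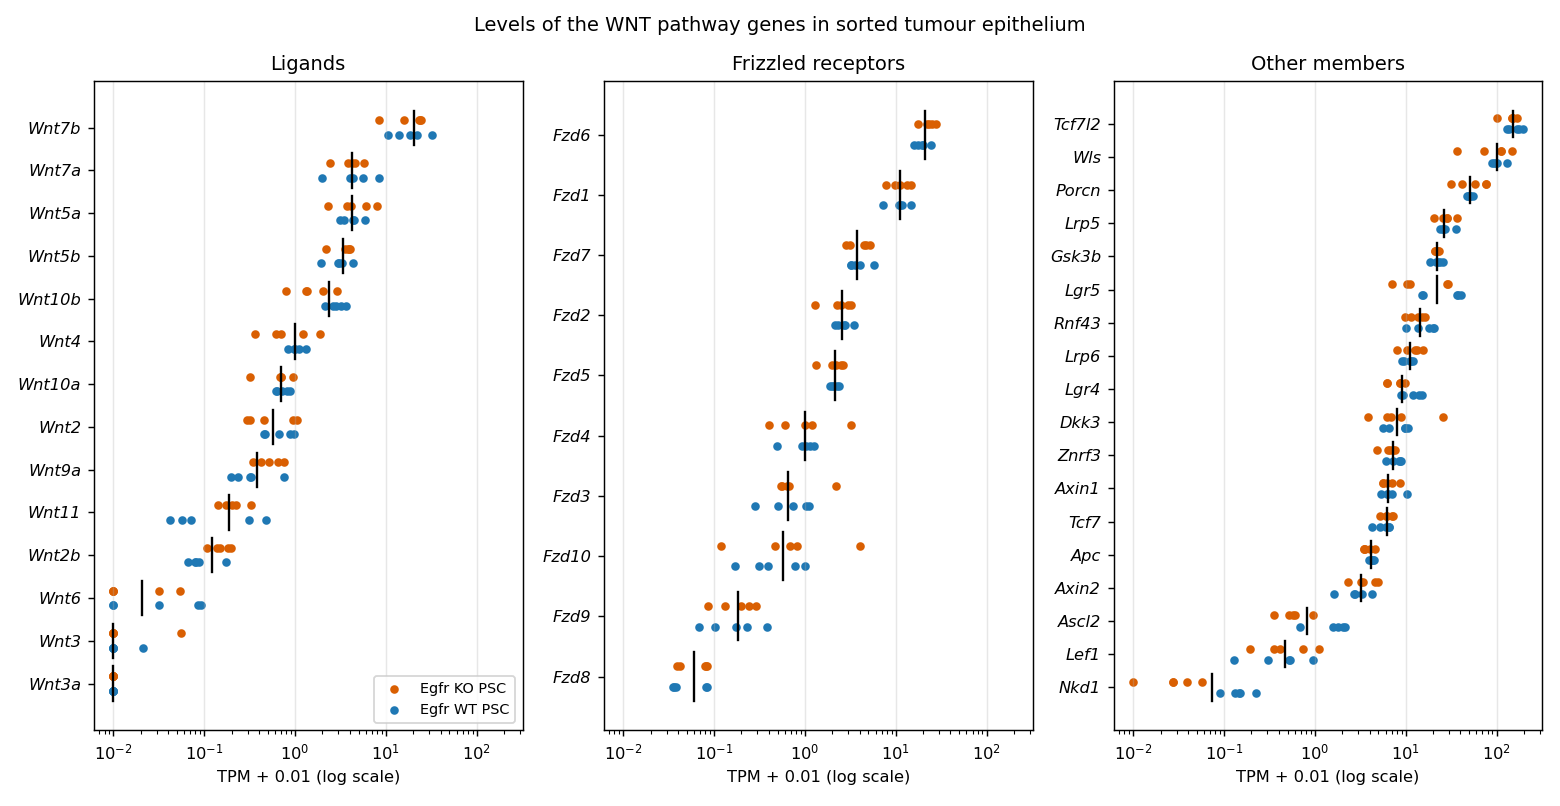
Level of each of the 42 WNT pathway genes in TPM plus 0.01 on a log axis, in panels for ligands, Frizzled receptors and other members. Each point is 1 library (orange for Egfr KO PSC, above, blue for Egfr WT PSC, below), and the black bar is the median of the 10. Wnt7b and Fzd6 lead their families at medians of 20.3 and 21.1 TPM, and the orange and blue points overlap for every gene but Nkd1. Nkd1 had only 0 to 12 counts in a library, and its groups overlap in CPM.

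Among the receptors, Fzd6 and Fzd1 led. Fzd6, a Frizzled linked to planar polarity, had a median of 21.1 TPM (range 15.8 to 28.0). Its range over the 10 libraries was separate from that of Fzd1, and the range of Fzd1 from that of Fzd7. These were the only separate neighbours in the 3 orders of levels. Fzd6 held 45.5 to 54.0% of the summed Frizzled TPM with Egfr KO PSCs and 39.7 to 60.3% with Egfr WT PSCs.

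Fzd1 was at 9.73, 11.2, 13.4, 14.8 and 7.73 TPM with Egfr KO PSCs, and at 7.23, 11.8, 11.0, 10.9 and 14.8 TPM with Egfr WT PSCs. Fzd7, a receptor of stem and progenitor cells in several epithelia, was at 3.14, 4.63, 5.23, 4.43 and 2.80 TPM with Egfr KO PSCs, and at 3.21, 3.98, 3.50, 3.20 and 5.79 TPM with Egfr WT PSCs. Fzd2 was at 2.26, 3.17, 3.003, 2.45 and 1.29 TPM with Egfr KO PSCs, and at 2.12, 2.73, 2.28, 2.70 and 3.49 TPM with Egfr WT PSCs. In all 3 genes replicate 5 was the lowest of the Egfr KO PSC libraries and replicate 5 the highest of the Egfr WT PSC libraries, with overlapping groups.

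Fzd5, which serves RNF43-deficient human pancreatic cancer lines as a WNT receptor, had a median of 2.15 TPM and a range of 1.31 to 2.61 TPM. Fzd4 had a median of 1.00 TPM and the widest spread of the members at or above 1 TPM, with 8.02 times more in the highest library than in the lowest. Its highest value, 3.17 TPM, was in replicate 3 of the Egfr KO PSC libraries, which also had the highest endothelial marker sum, 35.9 TPM. Fzd4 is also a receptor of endothelial cells. The part of such cells in its level was not tested. Fzd3, Fzd10, Fzd9 and Fzd8 had medians below 1 TPM.

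The co-receptors were both present. Lrp5 was at 25.9, 28.5, 36.8, 28.2 and 20.6 TPM with Egfr KO PSCs, and at 24.0, 25.6, 27.1, 25.9 and 36.0 TPM with Egfr WT PSCs. Lrp6 was at 10.3, 12.6, 15.7, 13.4 and 7.97 TPM with Egfr KO PSCs, and at 9.06, 11.0, 9.56, 11.3 and 12.0 TPM with Egfr WT PSCs. Lrp5 was above Lrp6 in total TPM, but only part of its signal came from coding transcripts, as described further on.

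Downstream, Tcf7l2 held nearly all of the summed TPM of the TCF and LEF genes listed as members. Tcf7l2, also called TCF4, was at 149.7, 152, 102, 168 and 146 TPM with Egfr KO PSCs, and at 178, 130.4, 195, 167 and 137 TPM with Egfr WT PSCs. Replicate 3 of the Egfr KO PSC libraries stood alone at the low end. Tcf7l2 held 94.8 to 97.4% of the summed TPM of Tcf7, Tcf7l2 and Lef1 in every library, while Tcf7 had a median of 6.13 TPM and Lef1 of 0.454 TPM.

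In the destruction complex, Gsk3b and Apc were the steadiest of the members with a median of at least 1 TPM. Gsk3b, its kinase, was at 22.1, 20.9, 21.2, 22.5 and 23.2 TPM with Egfr KO PSCs, and at 22.4, 18.4, 21.8, 23.7 and 25.4 TPM with Egfr WT PSCs. The highest library had 1.38 times the level of the lowest, and for Apc, a scaffold, this ratio was 1.31. Axin1, the limiting scaffold, ranged over 1.94 times. By contrast the ratio was 6.84 for Dkk3, a secreted modulator, and 5.82 for the stem cell marker Lgr5. The highest Dkk3 value, 26.0 TPM, was in replicate 1 of the Egfr KO PSC libraries. That library also had the highest fibroblast marker sum, 387 TPM, of which Col3a1 alone gave 322 TPM. The other fibroblast genes were mixed there. Thy1 (13.3 TPM) and Pdgfrb (4.31 TPM) were at their highest of all libraries, and Fap (0.0513 TPM) and Postn (1.10 TPM) at their lowest. The part of fibroblasts in the Dkk3 level was not tested.

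**Figure D2:**
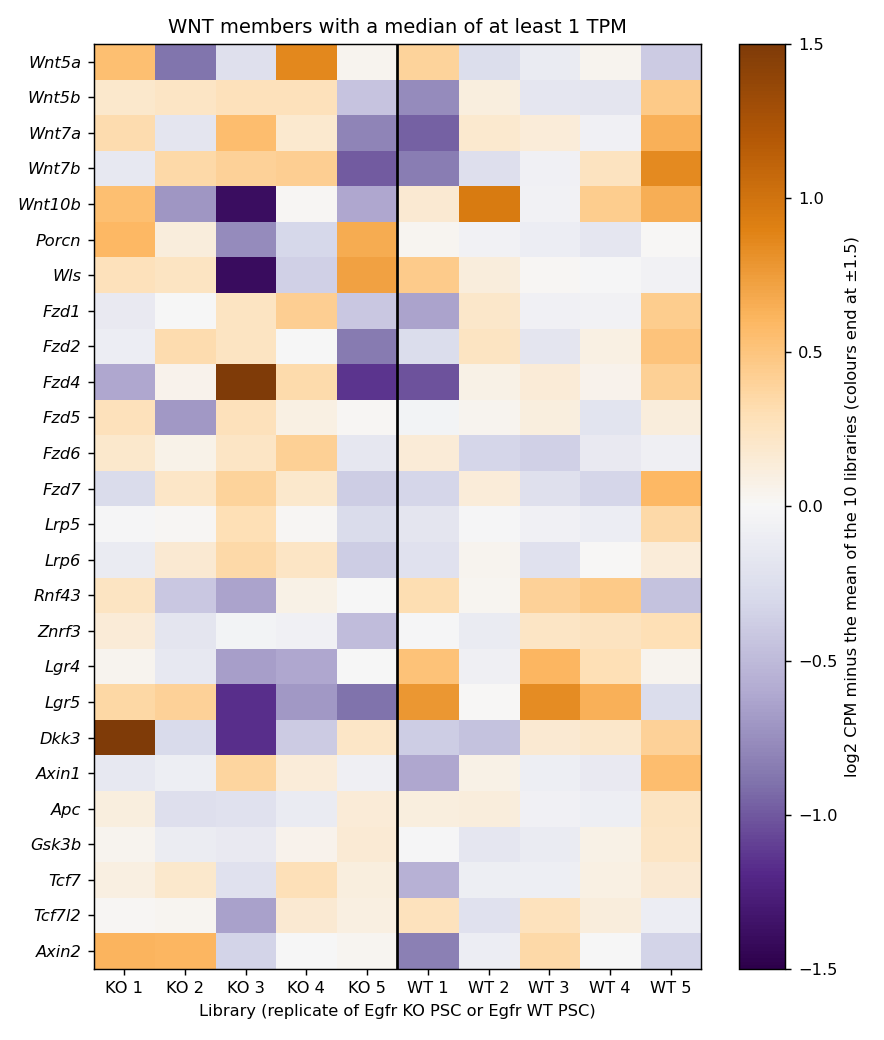
Log2 CPM of the members with a median of at least 1 TPM, centred on the mean of the 10 libraries. Columns are libraries (Egfr KO PSC left of the black line, Egfr WT PSC right), orange is above and purple below that mean, and the colours end at 1.5 in both directions. Lgr4 and Lgr5 are purple in columns 3 and 4 of Egfr KO PSC, while Gsk3b and Apc stay near the mean.

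Counted in reads, a marked part of the signal of 5 members came from transcripts that are not annotated as protein coding. Of the 28 members with a median of at least 100 reads, these 5 had a median coding share under 90%. Lrp5 had the lowest, 48.2%, with 37.4 to 51.7% in Egfr KO PSC libraries and 40.8 to 53.7% in Egfr WT PSC libraries. Most of the rest was given to Lrp5-203, an annotated nonsense-mediated decay transcript of 2835 bases, which held a median of 49.9% of the gene's reads. Wls had a coding share of 65.8%, and Wls-206, another such transcript, held 29.1% of its reads. Rnf43 had a coding share of 68.3%, with 31.3% of its reads in a retained-intron transcript, Rnf43-206. For Porcn the share was 74.6% and for Tcf7l2 84.1%. In TPM a short transcript weighs more than in reads. Lgr5 had a coding share of 95.4% in reads. Yet Lgr5-203, a processed transcript of 607 bases not annotated as coding, had a median of 6.26 TPM (0 to 12.0), beside 21.99 TPM for the gene.

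On coding transcripts alone the median levels were 102 TPM for Tcf7l2, 60.8 TPM for Wls, 9.35 TPM for Lrp5 and 8.79 TPM for Rnf43. On this measure Lrp5 lay beside Lrp6, at 9.39 TPM. Reads that several transcripts share are divided by the quantification model, so the split within a gene is an estimate.

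**Figure D3:**
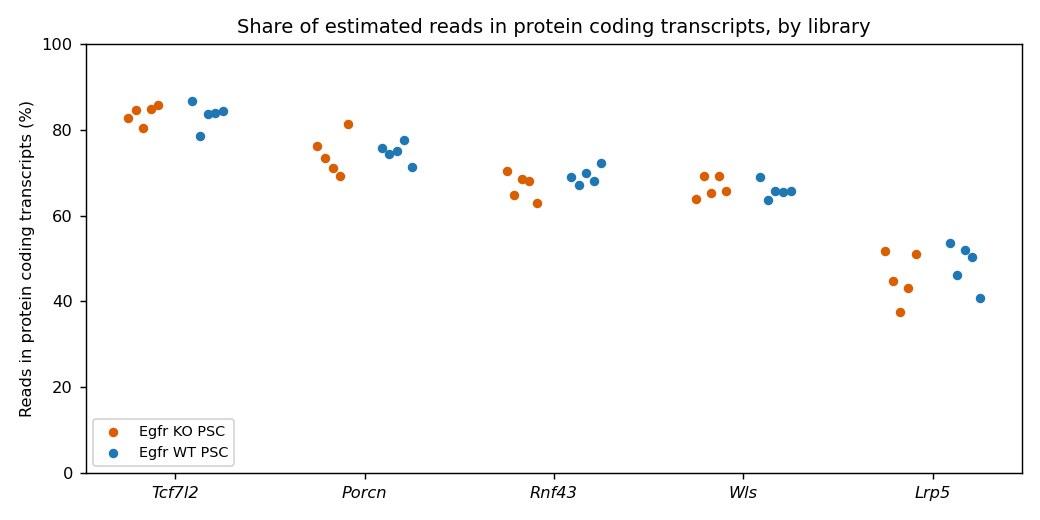
Share of each gene's estimated reads that was assigned to protein coding transcripts, in percent, for the 5 members with a median share under 90%. Each point is 1 library (orange for Egfr KO PSC, left, and blue for Egfr WT PSC, right). Lrp5 lies between 37.4 and 53.7%, and the groups overlap for every gene.

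No WNT gene passed the threshold between Egfr KO PSC and Egfr WT PSC epithelium. In edgeR's quasi-likelihood test, with p-values adjusted over 17495 genes, 0 of the 38 members tested had an adjusted p under 0.05, against a background of 0% of all genes. At an unadjusted p under 0.05 there were 4 of 38 members (10.5%), against 8.15% of all genes. By direction, 1 of them was higher with Egfr KO PSCs (2.63%, against 3.55% of all genes) and 3 were lower (7.89%, against 4.6%). The median log2 fold change of the 38 was 0.029, beside 0.00041 over all genes, with 23 members higher and 15 lower. In none of the 38 did the groups stand apart without overlap in CPM, here with TMM normalisation, against 1.52% of all genes tested. DESeq2 called 1 member, Ascl2, and 0.749% of all genes, and limma voom called 0 members and 0% of all genes. In bulk RNA a lower level can mean fewer cells of a type or less RNA per cell, and these cannot be told apart.

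The lowest p belonged to Ascl2, a transcription factor of intestinal stem cells that WNT signalling turns on. It had 0.858, 0.521, 0.324, 0.262 and 0.538 CPM in Egfr KO PSC libraries, against 1.77, 1.72, 1.86, 1.35 and 0.600 CPM in Egfr WT PSC libraries. The first 4 Egfr WT PSC libraries lay above every Egfr KO PSC library, and the fifth lay among them. The log2 fold change was -1.53 (SE 0.39, 95% interval -2.37 to -0.69), with an edgeR adjusted p of 0.396. DESeq2 gave -1.53 with an adjusted p of 0.0265, and limma voom an adjusted p of 0.410. Over the alternatives the log2 fold change stayed between -1.81 and -1.27, with adjusted p between 0.0265 and 1.00. The gene had a low level, with a median of 0.803 TPM, and rested on 11 to 44 counts with Egfr KO PSCs and 26 to 94 counts with Egfr WT PSCs.

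Lower values with Egfr KO PSCs were also seen in the 4 members listed for receptor turnover and R-spondin sensing. All 4 genes had a negative log2 fold change, of median -0.43, while 49.9% of all genes tested were lower. At an unadjusted p under 0.05 there was 1 of the 4, against 4.6% of all genes in this direction. Among the other pathway genes, the list of R-spondins and other receptors had 5 genes tested. Of these, 4 were higher and 1 lower, with a median log2 fold change of 0.28. Lgr4, an R-spondin receptor, had 30.9, 27.1, 18.9, 19.6 and 29.9 CPM with Egfr KO PSCs, against 43.2, 28.6, 45.6, 37.1 and 31.0 CPM with Egfr WT PSCs. Egfr KO PSC replicates 1 and 5 were above the lowest Egfr WT PSC library, and the other 3 were below all of them. The log2 fold change was -0.55 (SE 0.18, edgeR adjusted p = 0.481).

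Lgr5, an R-spondin receptor known as a marker of epithelial stem cells and itself a WNT target, had 55.0, 56.8, 19.2, 26.4 and 23.1 CPM with Egfr KO PSCs. It had 73.7, 43.2, 76.9, 67.2 and 35.9 CPM with Egfr WT PSCs. Egfr KO PSC replicates 3, 4 and 5 were lower than every Egfr WT PSC library, while replicates 1 and 2 lay within that range. The log2 fold change was -0.72 (SE 0.33, edgeR adjusted p = 0.618).

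Znrf3 and Rnf43 encode the ubiquitin ligases that clear Frizzled receptors. Znrf3 had 32.5, 25.8, 28.5, 28.0 and 20.9 CPM with Egfr KO PSCs, and 28.9, 27.0, 34.3, 35.0 and 36.2 CPM with Egfr WT PSCs. Rnf43 had 41.5, 26.3, 22.6, 37.0 and 35.0 CPM with Egfr KO PSCs, and 43.6, 36.0, 46.4, 48.7 and 25.7 CPM with Egfr WT PSCs. Both genes overlapped between groups, with log2 fold changes of -0.25 (SE 0.14, edgeR adjusted p = 0.671) and -0.30 (SE 0.20, edgeR adjusted p = 0.723). In TPM, Lgr5 had a median of 21.99, Rnf43 of 14.4, Lgr4 of 9.07 and Znrf3 of 7.21.

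**Figure D4:**
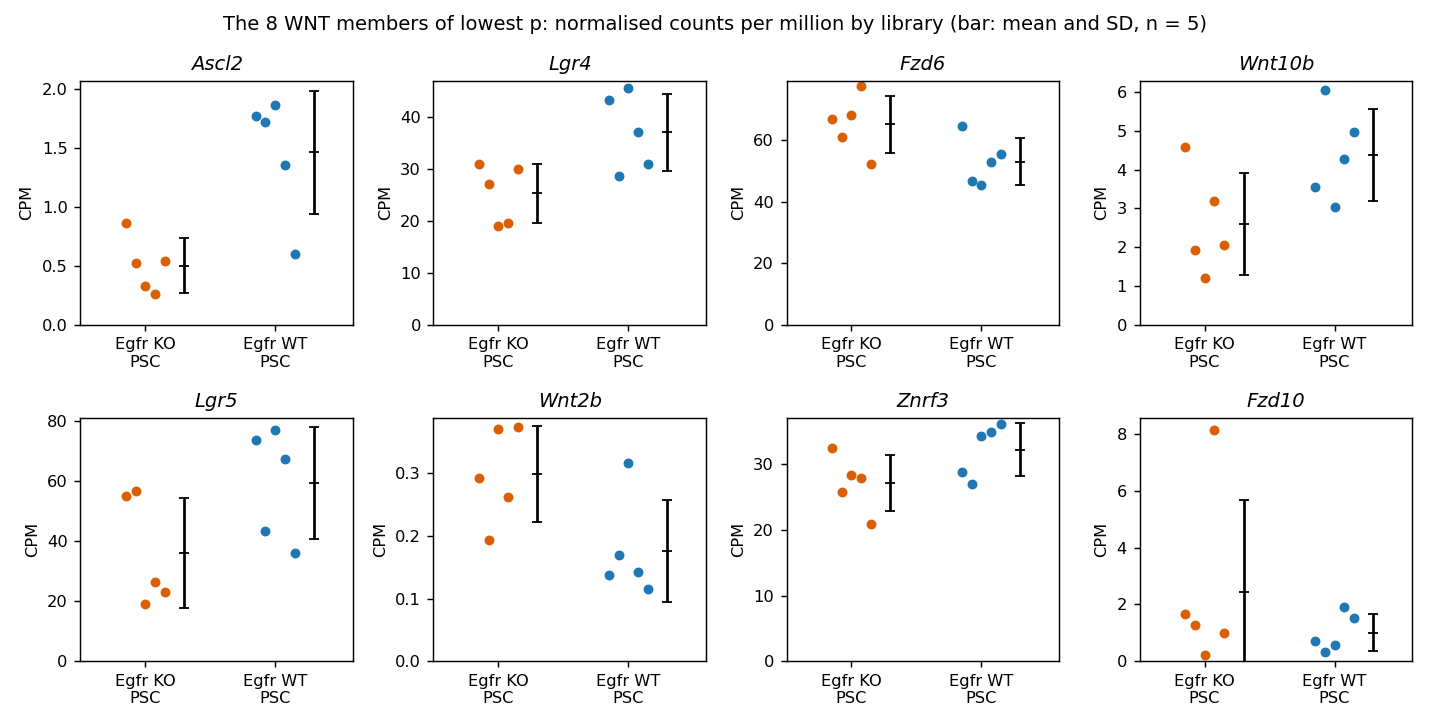
TMM-normalised CPM of the 8 WNT members of lowest p, with 1 point for each library (orange for Egfr KO PSC, left, blue for Egfr WT PSC, right) and the mean with its SD (n = 5) beside the points. Each axis starts at 0, which cuts the lower SD bar of Fzd10 with Egfr KO PSCs. Ascl2, Lgr4, Wnt10b, Lgr5 and Znrf3 average lower with Egfr KO PSCs, with points that overlap between groups in every panel.

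The 11 ligands tested were split, with 6 higher and 5 lower, and 1 of them (9.09%, against 8.15% of all genes) had an unadjusted p under 0.05. Wnt10b, an activator of beta-catenin, had 4.58, 1.93, 1.20, 3.19 and 2.06 CPM with Egfr KO PSCs, against 3.56, 6.04, 3.03, 4.26 and 4.96 CPM with Egfr WT PSCs. Egfr KO PSC replicates 2, 3 and 5 were below the Egfr WT PSC range. The log2 fold change was -0.75 (SE 0.34, edgeR adjusted p = 0.604). Wnt2b had 0.292, 0.193, 0.370, 0.262 and 0.374 CPM with Egfr KO PSCs, and 0.138, 0.170, 0.317, 0.142 and 0.115 CPM with Egfr WT PSCs. All Egfr KO PSC values were above 4 of the 5 Egfr WT PSC values, at very low counts, with a log2 fold change of 0.73 (SE 0.35, edgeR adjusted p = 0.639).

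The abundant ligands showed no difference beyond the spread of the libraries. The log2 fold change was -0.0027 for Wnt7b (95% interval -0.69 to 0.69), 0.010 for Wnt7a (-0.64 to 0.66), 0.23 for Wnt5a (-0.39 to 0.86) and 0.19 for Wnt5b (-0.33 to 0.71). These intervals leave room for changes of up to about that size in either direction. For the production genes it was 0.21 for Porcn (-0.29 to 0.71) and -0.059 for Wls (-0.71 to 0.59). Wnt9a, Wnt11, Wnt2, Wnt10a and Wnt4 lay between -0.14 and 0.57.

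Of the 10 Frizzled receptors, 8 were higher with Egfr KO PSCs and 2 lower, beside 8762 higher and 8733 lower of all genes tested. At an unadjusted p under 0.05 there was 1 of the 10, against 8.15% of all genes. This was Fzd6, with 66.8, 61.0, 68.2, 77.7 and 52.3 CPM with Egfr KO PSCs, against 64.6, 46.7, 45.6, 53.0 and 55.5 CPM with Egfr WT PSCs. In 3 of the 5 Egfr KO PSC libraries it was above every Egfr WT PSC library, with a log2 fold change of 0.30 (SE 0.13, edgeR adjusted p = 0.604). Fzd10 had 1.66, 1.29, 0.208, 8.12 and 0.982 CPM with Egfr KO PSCs, and 0.735, 0.340, 0.575, 1.89 and 1.52 CPM with Egfr WT PSCs. Its log2 fold change of 1.28 (SE 0.78, edgeR adjusted p = 0.707) rested on replicate 4 of the Egfr KO PSC libraries, and was 0.037 without it. Fitted beside the macrophage score, it was -0.61.

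The other receptors had log2 fold changes between -0.13 and 0.40. Intervals were narrow for the co-receptors, at 0.0072 for Lrp5 (95% interval -0.27 to 0.29) and 0.11 for Lrp6 (-0.19 to 0.42). They were narrow as well for Gsk3b (-0.23 to 0.23) and Apc (-0.38 to 0.13) of the destruction complex, and wider for Axin1 (-0.39 to 0.48). Among the TCF and LEF factors, Tcf7l2 was at -0.12 (-0.46 to 0.22), Tcf7 at 0.18 and Lef1 at 0.22. Dkk3 was at 0.33 (edgeR adjusted p = 0.867).

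The feedback genes pointed in different directions. Axin2, the most widely used readout of beta-catenin activity, had 11.3, 11.2, 5.81, 7.31 and 7.50 CPM with Egfr KO PSCs, and 4.13, 6.87, 9.29, 7.32 and 5.84 CPM with Egfr WT PSCs. Its log2 fold change was 0.36 (95% interval -0.18 to 0.90, edgeR adjusted p = 0.728), with a positive sign where Ascl2 had a negative one. Nkd1, an antagonist induced by the pathway, was below the expression filter, with 0, 5, 2, 2 and 3 counts with Egfr KO PSCs against 7, 10, 12, 10 and 4 counts with Egfr WT PSCs. In TPM the groups did not overlap, at 0 to 0.0469 TPM with Egfr KO PSCs and 0.0791 to 0.215 TPM with Egfr WT PSCs. The share of all genes whose groups stand apart in TPM was not counted, so this cannot be called unusual. In CPM the groups of Nkd1 overlapped, since 1 Egfr KO PSC library (0.0965 CPM) was above 1 Egfr WT PSC library (0.0924 CPM). In an edgeR fit without the filter its log2 fold change was -1.77 (SE 0.62, adjusted p = 0.597). Nkd1 is given here after its values were seen.

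**Figure D5:**
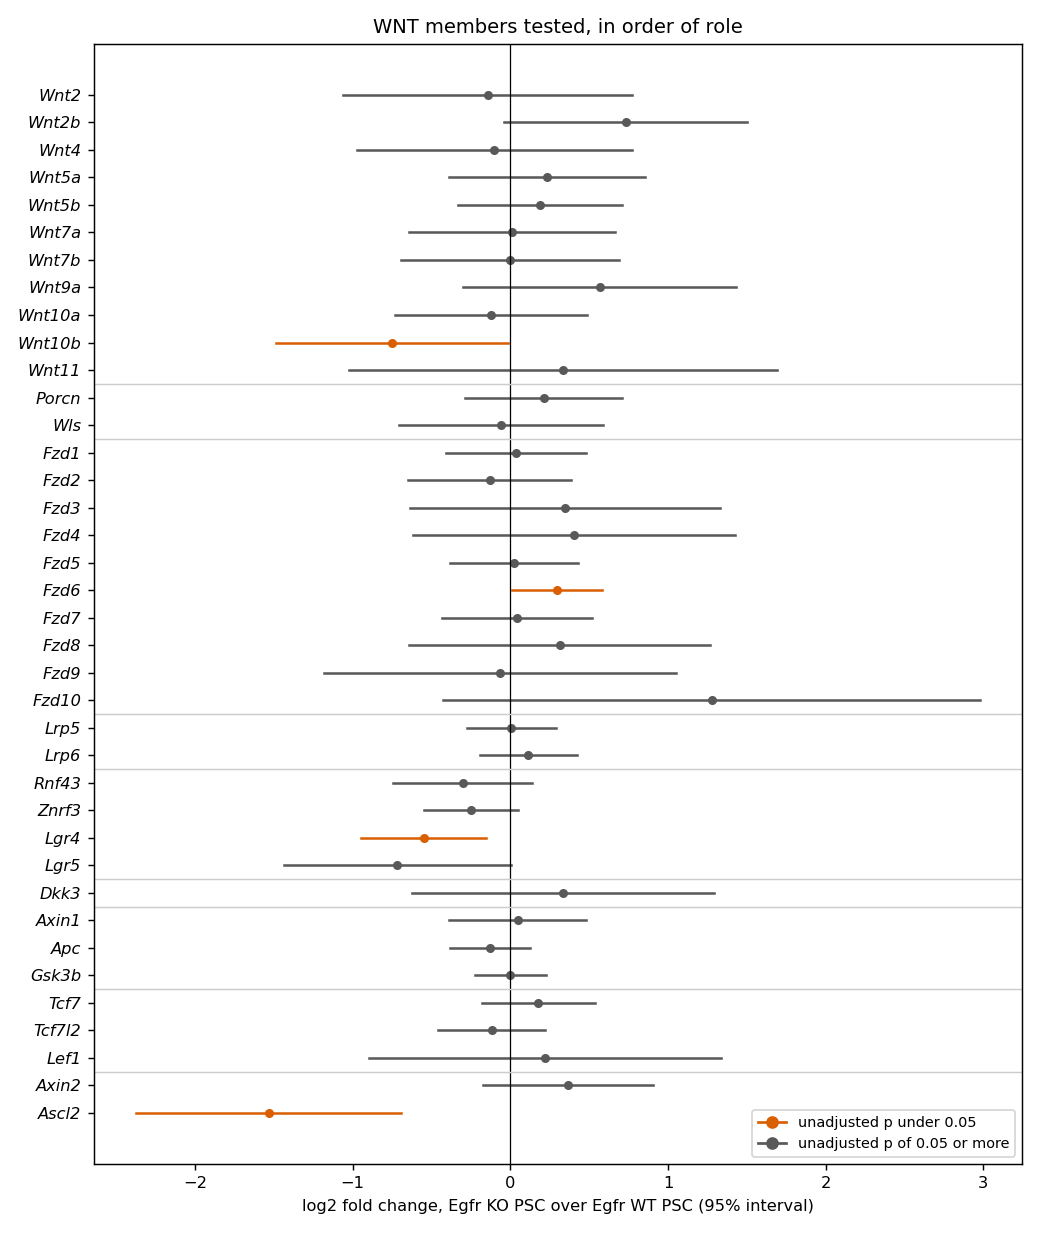
Log2 fold change (Egfr KO PSC over Egfr WT PSC) with its 95% interval for the 38 WNT members tested in edgeR, in order of role with grey lines between roles. Orange marks an unadjusted p under 0.05. The 4 orange genes are Wnt10b, Fzd6, Lgr4 and Ascl2, and all 4 genes of receptor turnover and R-spondin sensing lie left of 0.

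Beyond the members, 99 other pathway genes were examined, of which 79 were tested. No gene among them had an adjusted p under 0.05 in edgeR or limma voom, DESeq2 called 1, and 7 had an unadjusted p under 0.05 (8.86%, against 8.15% of all genes), 4 higher and 3 lower. Id2, an inhibitor of bHLH factors and a reported WNT target, had 684, 458, 473, 997 and 720.3 CPM with Egfr KO PSCs, against 317, 387, 337, 375 and 482 CPM with Egfr WT PSCs. Egfr KO PSC replicates 1, 4 and 5 lay above the Egfr WT PSC range. The log2 fold change was 0.81 (SE 0.21, edgeR adjusted p = 0.396), and DESeq2 gave an adjusted p of 0.0344.

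Olfm4, a marker of LGR5-positive intestinal stem cells in humans, had 66.6, 38.3, 15.5, 32.1 and 24.5 CPM with Egfr KO PSCs, and 41.4, 138, 116, 163 and 39.7 CPM with Egfr WT PSCs. Egfr WT PSC replicates 2, 3 and 4 were above every Egfr KO PSC library, with a log2 fold change of -1.49 (SE 0.46, edgeR adjusted p = 0.442). Myc had 622, 393, 426, 573 and 488 CPM with Egfr KO PSCs, and 374, 436, 344, 334 and 404 CPM with Egfr WT PSCs. In 3 of the 5 Egfr KO PSC libraries it was above the Egfr WT PSC range, with a log2 fold change of 0.40 (SE 0.14, edgeR adjusted p = 0.495).

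The next in order of p were Apc2, Sfrp2 and Ppp2r1a. Sfrp2, a secreted WNT inhibitor of fibroblasts, had 0, 0.0386, 0.162, 0.238 and 0.0935 CPM with Egfr KO PSCs, and 0.230, 0.396, 0.416, 0.118 and 0.346 CPM with Egfr WT PSCs (edgeR log2 fold change -1.53, adjusted p = 0.583). Of 12 fibroblast markers, 9 were lower with Egfr KO PSCs, against 49.9% of all genes tested. The part of fibroblasts in the Sfrp2 level was not tested. Apc2, a relative of Apc, had 0.156, 0.309, 0.370, 0.214 and 0.234 CPM with Egfr KO PSCs, and 0.321, 0.755, 0.416, 0.545 and 0.323 CPM with Egfr WT PSCs (edgeR log2 fold change -0.88, adjusted p = 0.547). Ppp2r1a, a scaffold of protein phosphatase 2A, had 379, 364, 291, 376 and 468 CPM with Egfr KO PSCs, and 288, 299.9, 318, 304 and 335 CPM with Egfr WT PSCs (edgeR log2 fold change 0.28, adjusted p = 0.586). Both overlapped between the groups. The seventh, Smoc2, was named after its values were seen, and its log2 fold change of 2.53 was made with 68.6 CPM in replicate 4 of the Egfr KO PSC libraries, against 0.949 to 6.49 CPM in the other 4 and 0.698 to 6.56 CPM with Egfr WT PSCs.

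The R-spondins were near 0 in the sorted cells, although the receptors Lgr4, Lgr5 and Lgr6 were expressed. Rspo1 to Rspo4 all had medians at or under 0.0511 TPM and were below the filter, while Lgr6 had a median of 10.6 TPM. Of 15 secreted inhibitors, Dkk1 had no count in any library, Wif1 was below the filter, and Dkk2 had a median of 11.6 TPM. Beta-catenin itself (Ctnnb1) had a median of 392 TPM, and 424 ± 63.4 CPM with Egfr KO PSCs beside 468 ± 75.8 CPM with Egfr WT PSCs (mean ± SD, n = 5 each; edgeR adjusted p = 0.812). Of 16 genes of the non-canonical and polarity branch, 13 were lower with Egfr KO PSCs and 3 higher, none with an unadjusted p under 0.05. Their median log2 fold change was -0.19, beside 0.00041 over all genes.

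No marker of another cell type passed the threshold between the groups in edgeR. Of the 11 macrophage markers tested, 8 were lower with Egfr KO PSCs, 7 of them at an unadjusted p under 0.05 in edgeR (63.6%, against 4.6% of all genes), while Cd68, Csf1r and Mrc1 were higher. The 7 differ widely in level, from Adgre1 with 4 to 40 counts and C1qc with 0 to 133 to Cd14 with 5768 to 17672. Of the 12 fibroblast markers, 9 were lower, 3 of them at an unadjusted p under 0.05 (25%, against 4.6% of all genes). DESeq2 called 1 of them, the collagen gene Col1a1, which had an edgeR log2 fold change of -1.04 (adjusted p = 0.321) and a DESeq2 adjusted p of 0.00592. All 10 endothelial markers and 8 of 10 pericyte and smooth muscle markers were lower too, against 49.9% of all genes. Within the fit that had the macrophage score as a covariate, Ascl2 was at -1.27, Lgr4 at -0.72 and Lgr5 at -0.66 on the log2 scale, each with an adjusted p of 1.00. With the fibroblast score as a covariate they were at -1.70, -0.68 and -0.95, with adjusted p between 0.498 and 0.571. Most markers behind both scores were themselves lower with Egfr KO PSCs, so these fits cannot separate the scores from the group. Whether other cells contributed to the WNT differences was not tested.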

How the data were processed

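Messenger RNA of 10 libraries was analysed, 5 for each of 2 groups given by the PSC line in the labels. The authors deposited the expected (estimated) count, TPM and effective length of 147828 transcripts per library, made with Salmon 1.9.0 and GRCm39 per the submitters' processing notes. The deposited expected counts are not normalised, and the deposited TPM are scaled to a fixed sum within a library. Per the labels' protocols, low-input libraries were amplified by PCR with cycles set by RNA amount. Duplicate molecules could not be removed here, so errors include that noise.

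Names came from GENCODE M21, which held 137063 of the transcripts (92.7%) and 98.1 to 98.7% of the counts of a library. No coordinates were taken from it. Tle5 was matched under its older symbol. Counts were summed per gene and rounded. edgeR 4.0.16 in R 4.3.3 tested 17495 genes (quasi-likelihood F test, TMM, minimum count 10, no covariate, Benjamini-Hochberg threshold 0.05), and was tested on simulated data first. TPM, used between genes, were summed per gene. Alternatives were DESeq2 1.42.0, limma 3.58.1 (voom, and log2 of TPM plus 0.1), other size factors, no filter, a transcript length offset, coding transcripts, marker scores or the file number as covariates, and leaving out each library.

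Values in every library were given for the 8 members of lowest p and the 4 ligands, 4 Frizzled receptors and 8 other members of highest median TPM, and for the 6 other pathway genes of lowest p. The members and lists were chosen with earlier results of these data known. The labels do not say that libraries came from separate mice, so tests weigh only library-to-library spread. Every pair of libraries differed by more than sampling noise, with a lowest chi-square per degree of freedom of 39.2.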

Additional observations from a re-analysis of the deposited data

Results flagged for a closer look

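Among the 38 members tested, each group of 5 libraries was examined for 1 library far from the other 4 (76 groups in all), and chance marks about 1 group in 20. The 8 values marked were these. Replicate 3 of the Egfr KO PSC libraries had 19.5 CPM of Fzd3, against 5.01 to 5.98 CPM in the other 4, and 159 CPM of Tcf7l2, against 252 to 280.2 CPM. The same library had the highest endothelial marker sum of all (35.9 TPM) and the lowest epithelial marker sum (14234 TPM). The epithelial genes were mixed in it. Krt8 (2065 TPM) and Krt18 (3474 TPM) were at their lowest of all libraries. Epcam (253 TPM) and Cldn4 (1741 TPM) were above their medians of 209 and 1646 TPM. Replicate 1 had 60.6 CPM of Dkk3, against 8.40 to 21.9 CPM in the other Egfr KO PSC libraries. It had the highest fibroblast marker sum (387 TPM, of which 322 TPM was Col3a1). Of the other fibroblast genes, Thy1 and Pdgfrb were highest in this library, and Fap and Postn lowest. Replicate 4 had 8.12 CPM of Fzd10, against 0.208 to 1.66 CPM. Replicate 5 had 3.25 CPM of Wnt5b, against 5.03 to 5.34 CPM.

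In the Egfr WT PSC group, replicate 5 had 1.64 CPM of Wnt9a, against 0.390 to 0.717 CPM in the other 4, and 82.7 CPM of Lrp5, against 57.5 to 64.7 CPM. It also had the highest pericyte marker sum (124 TPM). Replicate 3 had 0.317 CPM of Wnt2b, against 0.115 to 0.170 CPM. The part of other cells in these values was not tested.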

How the results depend on the processing

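No alternative called more than 1 WNT member. DESeq2 called 1 member (Ascl2), 1 other pathway gene (Id2) and 131 of all genes, and no other alternative called any member or pathway gene, leaving out each library included (0 to 0). All genes past the threshold numbered 1 with no filter on low counts and 1 with limma on TPM, and 0 to 4 when 1 library was left out, with 4 without replicate 1 and 1 without replicate 3 of the Egfr KO PSC libraries and 2 without replicate 5 of the Egfr WT PSC libraries. Members at an unadjusted p under 0.05 numbered 6 with no filter on low counts, 2 with the macrophage score as a covariate and 2 to 5 when 1 library was left out, with 2 without replicate 4 of the Egfr WT PSC libraries. The median log2 fold change of the members was 0.20 beside a fibroblast covariate and -0.019 to 0.16 when 1 library was left out. Fzd10 turned to -0.61 with the macrophage score as a covariate and lay at 0.037 to 1.63 when 1 library was left out; the cause was not tested. The 16 genes of highest level were the same 4 ligands, 4 Frizzled receptors and 8 others on coding transcripts and on counts per kilobase. On coding transcripts the levels of Tcf7l2, Wls, Lrp5 and Rnf43 moved to 102, 60.8, 9.35 and 8.79 TPM. No paired analysis was possible because the labels carry no shared replicate numbers, and those used here only name libraries. Counts of a few reads limit Wnt2b, Wnt3, Wnt6, Wnt11, Fzd8, Fzd9, Nkd1 and Sfrp2, and counts were low for Apc2 as well.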
